A study of Saccharomyces cerevisiae with 16 samples.

Results

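Translation factors are the soluble proteins that help the ribosome start, extend and end a protein chain. The set described here held 42 budding yeast genes for the subunits of initiation factors eIF1 to eIF6 and of eIF2B, the elongation factors eEF1, eEF2, eEF3 and eIF5A, the release factors eRF1 and eRF3, and DED1, PAB1, RLI1 and NEW1. They were chosen by gene name, with earlier results of these data known. They lie in 38 of the 5574 listed rows, because 4 pairs of near-identical genes share a row. The 16 libraries came from cells of the strain BY4741 grown in YPD, a rich medium, to an OD600 of 0.5. There were 3 can1, 2 rpl22a, 2 tor1 and 3 wild-type libraries of ribosome footprints, and 2 can1, 1 rpl22a, 1 tor1 and 2 wild-type libraries of mRNA. Each mutant lacks 1 gene: CAN1 encodes the arginine permease, RPL22A 1 of a pair of genes for the large-subunit protein eL22, and TOR1 a growth-regulating kinase. The title of the series sets can1 in the context of replicative lifespan. Lysates held cycloheximide, and mRNA was taken from aliquots of the same lysates. Whether replicates were separate cultures is not in the labels, and p-values cover the spread between the sequenced libraries alone, which may be technical.

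Initiation begins when eIF2 carries the initiator tRNA to the small subunit, helped by eIF1, eIF1A, eIF3 and eIF5, while eIF4F and its helicases bring in the mRNA. eIF2B recharges eIF2 with GTP, and eIF5B joins the large subunit. eEF1A then delivers aminoacyl-tRNAs, eEF2 moves the ribosome along, and fungi also need eEF3; eRF1 and eRF3 end the chain and RLI1 splits the ribosome. In rich medium many of these proteins, though not all, are among the most abundant in yeast.

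Recovered library totals ran between 2523450 and 8697630 footprints and between 7645930 and 26588800 mRNA reads. The rpl22a footprint replicate 2 stood apart, with 76.4% of its reads in listed rows, against 80.6% to 81.7% in the other 9 footprint libraries. The part of this in the results was not tested, and the calls that ended without that library are given below. The deleted genes matched the labels. CAN1 had 1, 2 and 1 footprint reads in the can1 strain, against 582, 440 and 208 in wild type. RPL22A had 5 and 17 in rpl22a, against 7862, 4379 and 1883 in wild type. TOR1 had 2 and 1 in tor1, against 285, 224 and 129 in wild type. In mRNA, CAN1 had 0 and 3 reads in the can1 strain, RPL22A 85 in rpl22a and TOR1 0 in tor1. Levels below are scaled RPKM, that is reads per kilobase of listed length per 1000000 reads, scaled between libraries. They are relative, so in these bulk samples fewer cells and less RNA per cell cannot be told apart.

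Several members exist as near copies, and the closest pairs share a row. The coding sequences of TEF1 and TEF2 (eEF1A) were 99.9% identical, EFT1 and EFT2 (eEF2) 99.8% and TIF1 and TIF2 (eIF4A) 99.5%. HYP2 and ANB1, the aerobic and hypoxic genes for eIF5A, were 90.9% identical, with 43 differing bases among 474, and share a row too. The first 180 coding bases of this pair, from the RefSeq genome of build R64, are shown with the 10 differing bases in capitals. HYP2 lies at chrV:85676-85855, plus strand, and ANB1 at chrX:525202-525381, minus strand.
HYP2: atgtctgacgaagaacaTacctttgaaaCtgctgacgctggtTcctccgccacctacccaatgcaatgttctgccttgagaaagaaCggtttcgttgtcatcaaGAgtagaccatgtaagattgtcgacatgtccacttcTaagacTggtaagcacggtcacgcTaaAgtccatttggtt
ANB1: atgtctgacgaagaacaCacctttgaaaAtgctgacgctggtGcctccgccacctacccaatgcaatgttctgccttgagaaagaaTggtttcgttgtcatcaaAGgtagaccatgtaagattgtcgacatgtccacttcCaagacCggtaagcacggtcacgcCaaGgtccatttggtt
The deposited values of the 4 merged rows are not split between the copies. YEF3 and HEF3 (74.8% identical), TEF4 and CAM1 (69.1%) and TIF4631 and TIF4632 (60.5%) had rows of their own.

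Promoters of the set were searched, on both strands of the 300 bases before each start codon, for 3 motifs of growth-related yeast genes, which were chosen after the expression values had been seen. The RRPE string AAAAATTTT was present at 27 of 42 members (64.3%), against 426 of the 5071 promoters of tested genes (8.40%), members included. Genes with high footprint levels held it more often: it was present at 118 of the 552 promoters (21.4%) in the top 10% of rows by wild-type footprint level, which included 34 members, of which 25 held it. The PAC string GATGAG was present at 9 members (21.4%), against 19.5% of promoters, and a Rap1 consensus at 0 members, against 0.789%. The RRPE string and its reverse complement can overlap, and a promoter counted once however many matches it held. No binding was measured, and these matches are descriptions of sequence. Upstream windows are shown for TEF1, of the row with the highest footprint level of the set, and for TIF6 and RPG1, which moved in opposite directions below, with RRPE and PAC matches in capitals. TEF1 is at chrXVI:700294-700593, plus strand, TIF6 at chrXVI:593070-593369, minus strand, and RPG1 at chrII:398278-398577, minus strand.
TEF1: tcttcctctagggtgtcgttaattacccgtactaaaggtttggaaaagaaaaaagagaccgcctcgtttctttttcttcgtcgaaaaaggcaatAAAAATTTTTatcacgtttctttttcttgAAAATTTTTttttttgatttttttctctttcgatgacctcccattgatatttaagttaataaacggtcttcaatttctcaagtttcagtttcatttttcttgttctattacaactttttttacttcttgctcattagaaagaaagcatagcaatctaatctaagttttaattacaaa
TIF6: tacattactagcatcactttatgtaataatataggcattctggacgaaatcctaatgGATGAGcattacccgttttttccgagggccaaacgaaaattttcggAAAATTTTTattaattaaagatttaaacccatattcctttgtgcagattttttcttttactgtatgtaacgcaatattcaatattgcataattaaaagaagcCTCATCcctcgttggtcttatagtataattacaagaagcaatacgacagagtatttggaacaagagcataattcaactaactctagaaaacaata
RPG1: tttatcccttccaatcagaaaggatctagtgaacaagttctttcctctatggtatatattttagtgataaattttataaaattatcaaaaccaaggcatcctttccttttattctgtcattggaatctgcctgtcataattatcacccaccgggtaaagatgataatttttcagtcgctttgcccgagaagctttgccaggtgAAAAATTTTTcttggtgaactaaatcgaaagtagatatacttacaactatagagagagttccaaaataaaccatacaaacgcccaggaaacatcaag
TEF1 held RRPE matches beginning 206, 205 and 177 bases before its start codon. TIF6 held 1 RRPE match, 197 bases before its start codon, and PAC matches at 243 and 95. RPG1 held overlapping RRPE matches at 97 and 96.

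**Figure D1:**
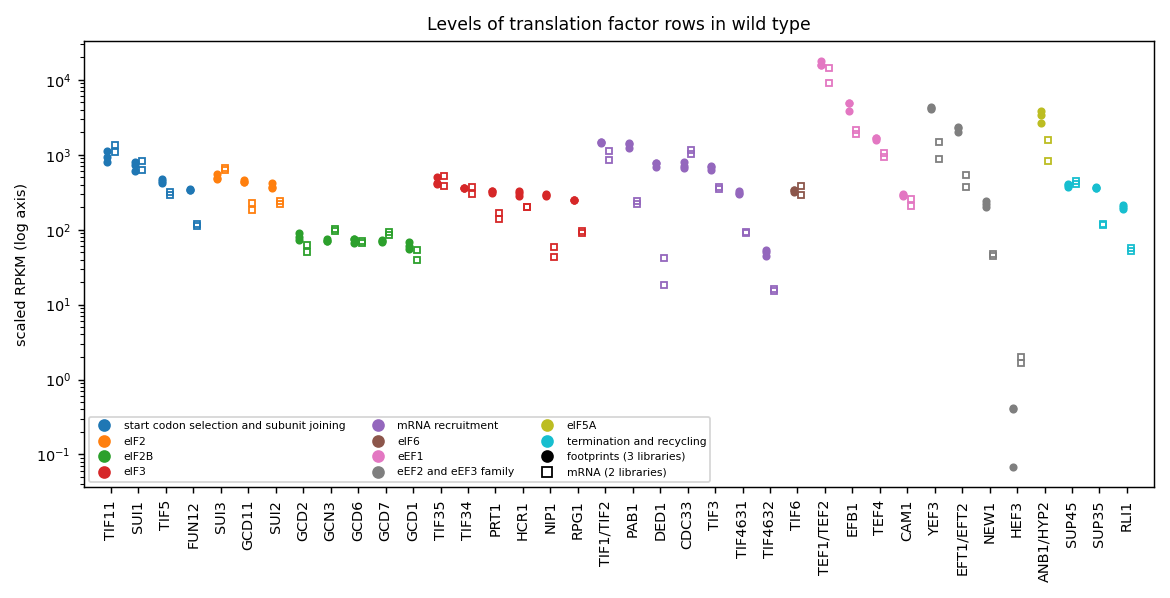
Scaled RPKM (log axis) of each translation factor row in wild type, coloured by role. Filled circles are the 3 footprint libraries and open squares the 2 mRNA libraries. Elongation factors sit highest, eIF2B subunits and TIF4632 low, and HEF3 near 0.

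In wild type the elongation factors led the set. The TEF1/TEF2 row reached 15592, 17840.0 and 15731 scaled RPKM in the 3 footprint libraries and ranked 1st of all rows in each. In the other strains it ranked 1st in every footprint library but rpl22a replicate 2, where it was 2nd. EFB1 (the eEF1B exchange subunit) had 4943, 4904 and 3801, YEF3 (eEF3) 4228, 4363 and 4052, ANB1/HYP2 3783, 3373 and 2687 and EFT1/EFT2 2022, 2374 and 2307. At the low end, the 5 subunits of eIF2B lay between 54.8 and 89.3 and TIF4632, the minor eIF4G, at 52.9, 49.9 and 44.6. HEF3, the second eEF3 gene, had 10, 1 and 3 footprint reads in wild type and 0 to 9 in the other strains, and was the 1 row of the 38 that failed the filter on low values for footprints.

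Subunits of eIF2, of core eIF3 and of the release factor lay closer together in footprints than in mRNA. In every library the ratio of the highest to the lowest subunit of eIF2 was 1.27 to 1.67 in footprints, against 2.52 to 3.33 in mRNA. For eIF2B it was 1.14 to 1.67 in footprints and 1.48 to 2.42 in mRNA, ranges that overlap. For SUP45 and SUP35 (eRF1 and eRF3), it was 1.01 to 1.21 in footprints, against 2.96 to 4.11 in mRNA. For the 5 core subunits of eIF3 it was 2.57 and 3.79 in rpl22a, against 2.06, 1.64 and 1.66 in wild type, in footprints, and 6.51 to 16.3 over the mRNA libraries. DED1, a helicase that helps ribosomes scan, stood apart, with 685, 788 and 766 scaled RPKM in wild-type footprints and 41.9 and 18.4 in wild-type mRNA. Of 37 members measured in both assays, 32 had a footprint to mRNA ratio above that of the median gene in wild type, and 14 were in its top 10%. These are descriptions of levels, with no test.

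**Figure D2:**
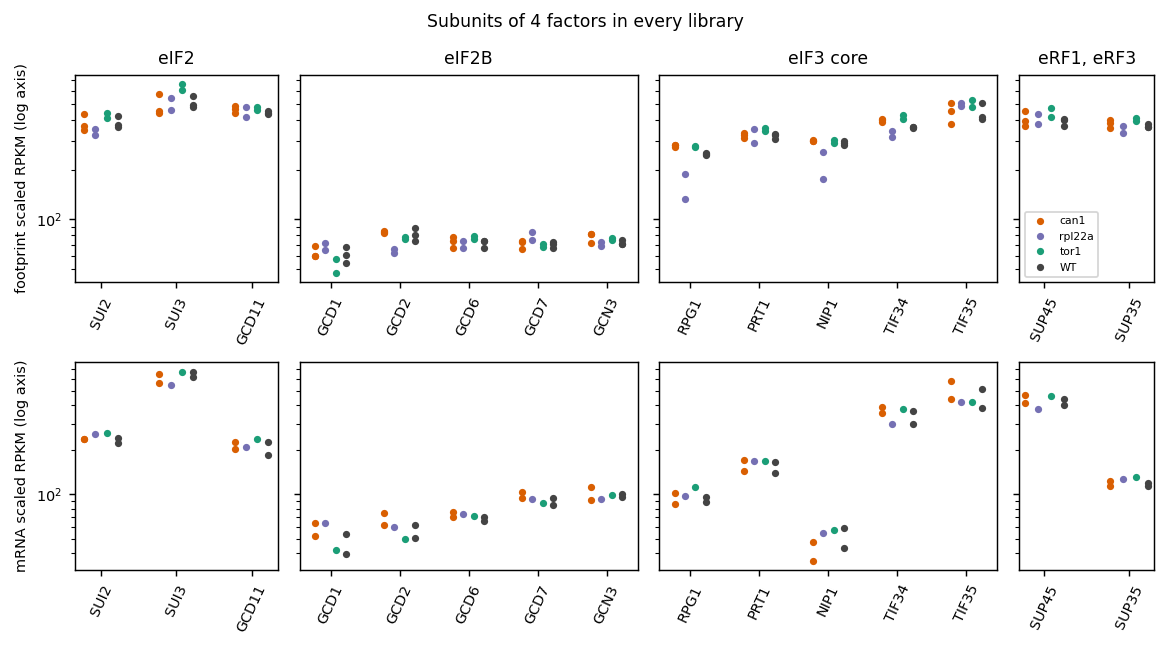
Scaled RPKM (log axes) of the subunits of eIF2, eIF2B, core eIF3 and eRF1 with eRF3, footprints above and mRNA below, with a point per library. Subunits of eIF2, core eIF3 and the release factor lie closer together in footprints than in mRNA, and RPG1 and NIP1 are lower in rpl22a footprints.

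Without RPL22A, footprint levels of several initiation factors and of eIF5A were lower. Of 37 member rows tested, 6 fell and 1 rose in rpl22a relative to wild type, 18.9% of the members, beside 18.9% of all 4900 rows tested (10.1% fell and 8.82% rose). The share called was thus that of all genes. The count of members called was 1 without rpl22a replicate 2, 4 without rpl22a replicate 1, 4 without replicate 2 or 3 of wild type, and 5 without replicate 1 of wild type. Over all rows the calls went from 928 to 977, 631 and 633 without replicates 1, 2 and 3 of wild type. They also fell without either rpl22a library. With the trend on length removed 852 of all rows were called. The count of members was then again 7, all lower, of which 4 were the same members. The others were EFB1 (log2 fold change -0.39, limma adjusted p = 0.0124), TEF4 (-0.36, 0.0358) and TIF1/TIF2 (-0.25, 0.0356). The members' median log2 fold change was -0.15, against 0.01 over all rows. Every rpl22a library lay below every wild-type library for 18 members (48.6%), against 25% of all rows, and above for 2 (5.41%), against 24.8%. With the deposited RPKM and no further scaling the median over all rows became 0.17 and that of the members 0.03, so the sign of the members' median depends on the scaling, and it lay below that of all rows under both.

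Among eIF3 subunits, RPG1 (eIF3a, YBR079C, chrII:395383-398277) had 189 and 134 in the rpl22a libraries, against 247, 248 and 252 in wild type. The groups did not overlap, and replicate 2 was the lower rpl22a library. The log2 fold change was -0.64 ± 0.13 (SE; limma, Benjamini-Hochberg adjusted p = 0.00657), and it missed the threshold without rpl22a replicate 2 (log2 fold change -0.39, adjusted p = 0.0581). With the trend on length removed it was -0.42 (adjusted p = 0.0227). NIP1 (eIF3c, YMR309C, chrXIII:892988-895426) had 257 and 175 in the rpl22a libraries, against 280.0, 298 and 288 in wild type. Both rpl22a values were below wild type, and replicate 2 was again far lower than replicate 1. Its log2 fold change was -0.44 ± 0.14 (limma adjusted p = 0.0447), with log2 fold change -0.17, adjusted p = 0.387 without rpl22a replicate 2. Leaving out any 1 wild-type library also ended the NIP1 call, as did removing the trend on length, which gave -0.27 (adjusted p = 0.137). TIF35 (eIF3g) was at the other end of the complex, with 487 and 507 in the rpl22a libraries, against 508, 407 and 418 in wild type and a log2 fold change of 0.17 ± 0.14 (limma adjusted p = 0.424). PRT1, TIF34 and HCR1 did not pass the test, with log2 fold changes of 0.00, -0.13 and 0.07.

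Factors that recruit mRNA gave 2 of 7 rows that fell. TIF4632 (eIF4G2, YGL049C, chrVII:406860-409604) had 31.2 and 32.3 in the rpl22a libraries, against 52.9, 49.9 and 44.6 in wild type, with no overlap. Its log2 fold change was -0.61 ± 0.14 (limma adjusted p = 0.0103), with log2 fold change -0.59, adjusted p = 0.0628 without rpl22a replicate 1 and log2 fold change -0.64, adjusted p = 0.0627 without replicate 2. With the trend on length removed it was -0.40 (adjusted p = 0.102). TIF3 (eIF4B, YPR163C, chrXVI:868645-869955), which stimulates the eIF4A helicase, had 487 and 434 in the rpl22a libraries, against 704, 679.8 and 618 in wild type. The rpl22a values were the lower ones throughout, with a log2 fold change of -0.54 ± 0.12 (limma adjusted p = 0.012) and log2 fold change -0.45, adjusted p = 0.113 without rpl22a replicate 2. TIF4631, the major eIF4G, had 263 and 239.8 in the rpl22a libraries, against 324, 303 and 312 in wild type (log2 fold change -0.32 ± 0.11, limma adjusted p = 0.0577). The ratio of TIF4631 to TIF4632 was 8.41 and 7.43 in rpl22a, against 6.13, 6.07 and 7.0 in wild type. TIF1/TIF2, PAB1, DED1 and CDC33 (the cap-binding eIF4E) did not pass, at -0.25, -0.29, 0.02 and 0.10, and CDC33 had the highest value of the group.

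**Figure D3:**
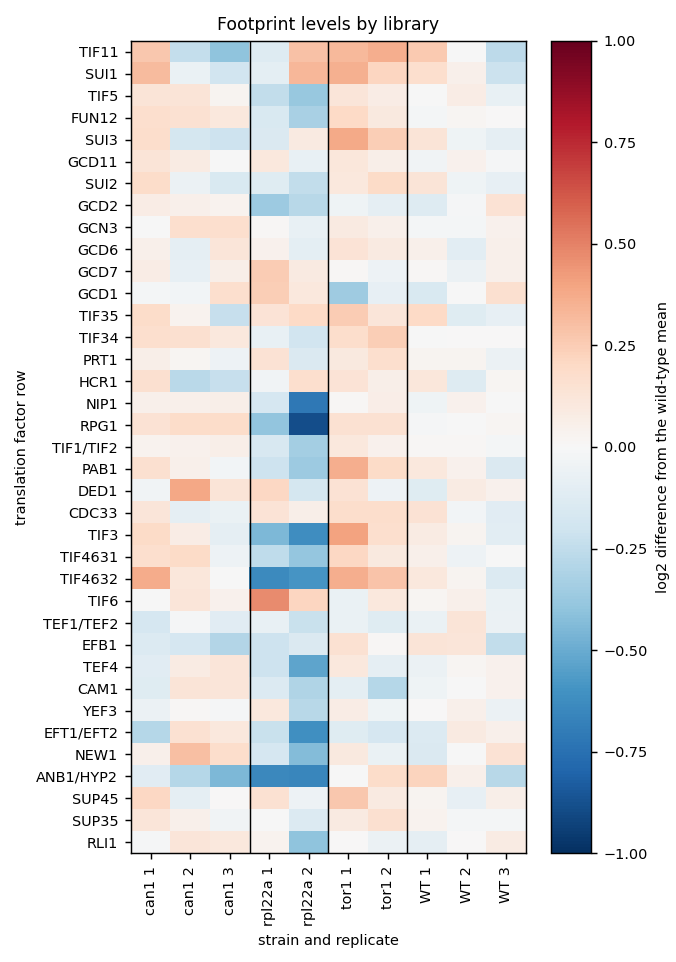
Log2 difference of each footprint library from the wild-type mean (colour) for the 37 translation factor rows tested, in role order, with libraries of can1, rpl22a, tor1 and wild type from left to right. RPG1, TIF3, TIF4632 and ANB1/HYP2 are low in both rpl22a libraries, with NIP1 and RPG1 lowest in replicate 2.

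TIF5 (eIF5, YPR041W, chrXVI:648704-649921), the GTPase-activating protein of eIF2, fell, with 376 and 343 in the rpl22a libraries, against 444, 469 and 424 in wild type. The groups did not overlap, and the log2 fold change of -0.31 ± 0.10 (limma adjusted p = 0.0457) passed narrowly. Leaving out any 1 of the 5 libraries ended this call, with log2 fold change -0.25, adjusted p = 0.237 without rpl22a replicate 2. SUI1 (eIF1) had the highest value of the start-codon group, 0.12 ± 0.18 (limma adjusted p = 0.677). No subunit of eIF2 or eIF2B was called, and their log2 fold changes ran from -0.18 for SUI2 to 0.02 for GCD11 in eIF2 and from -0.32 for GCD2 to 0.17 for GCD1 in eIF2B.

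The eIF5A row ANB1/HYP2 had the largest decrease of the set. It had 2074 and 2063 in the rpl22a libraries, against 3783, 3373 and 2687 in wild type. Both rpl22a libraries were lower than all 3 wild-type libraries, which differed among themselves, and the log2 fold change was -0.65 ± 0.15 (limma adjusted p = 0.0121). It missed the threshold without rpl22a replicate 1 (log2 fold change -0.66, adjusted p = 0.0628) or replicate 2 (log2 fold change -0.65, adjusted p = 0.082). Which of the 2 genes carried the decrease cannot be told apart in the merged row. Other elongation factors did not pass in the fit with no length term: EFT1/EFT2 had 1906 and 1456 in the rpl22a libraries, against 2022, 2374 and 2307 in wild type (log2 fold change -0.42 ± 0.15, limma adjusted p = 0.082), and TEF4 (eEF1B gamma) had 1420.5 and 1137 in the rpl22a libraries, against 1572, 1664 and 1690.5 in wild type (-0.37 ± 0.12, limma adjusted p = 0.0598). TEF4 passed without rpl22a replicate 1 (-0.53, adjusted p = 0.0386). TEF1/TEF2 changed by -0.15 and YEF3 by -0.09, neither past the threshold. The release and recycling factors SUP45, SUP35 and RLI1 gave 0.05, -0.07 and -0.18, none past the threshold.

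TIF6 (eIF6, YPR016C, chrXVI:592332-593069), which keeps immature large subunits from joining small ones, was the 1 member that rose. It had 462 and 385 in the rpl22a libraries, against 337, 343 and 317 in wild type. The groups did not overlap, and the log2 fold change was 0.34 ± 0.11 (limma adjusted p = 0.0496). The call ended without rpl22a replicate 1 (log2 fold change 0.21, adjusted p = 0.288), without any 1 wild-type library, and with the trend on length removed (0.18, adjusted p = 0.312).

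**Figure D4:**
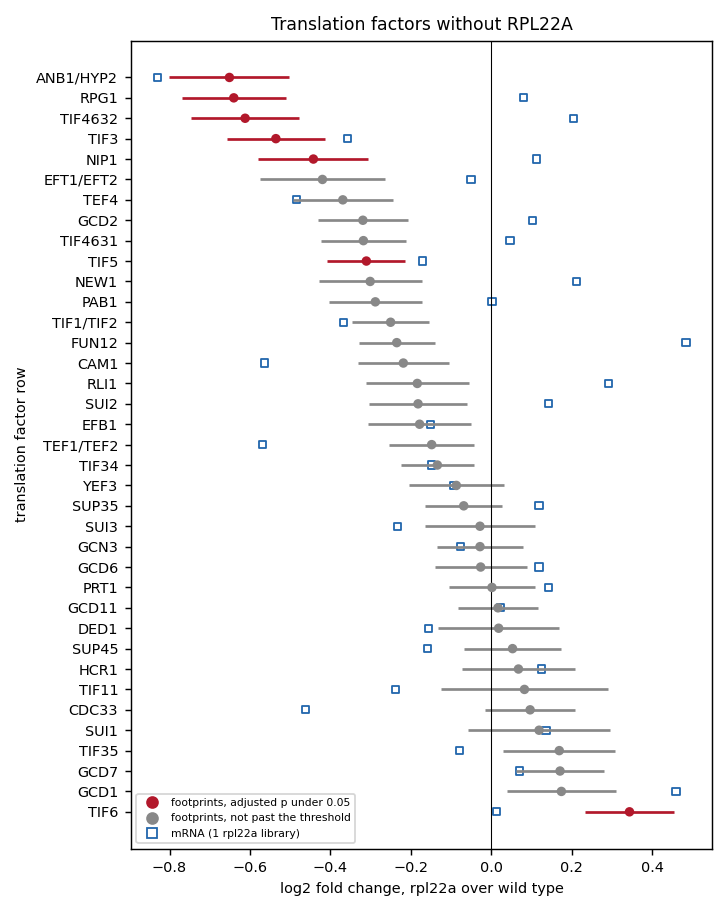
Log2 fold change of rpl22a over wild type for the 37 tested rows. Circles are footprints with standard errors (2 rpl22a and 3 wild-type libraries), red where the adjusted p was under 0.05, and open squares are mRNA (1 rpl22a and 2 wild-type libraries). The 6 lower rows run from -0.65 to -0.31, and TIF6 is at 0.34.

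Footprint change in rpl22a went with gene length. Across genes, the Spearman correlation of the log2 fold change with listed length was -0.44 over the 37 members and -0.41 over the 4900 rows. The 10 members of 2000 bases or more had a median of -0.31, against -0.18 for all rows of that length, and the 12 under 1000 bases had 0.02, against 0.19. Genes are not independent replicates, and these correlations are descriptions. ANB1/HYP2 is short, so its decrease was opposite to the trend, and its log2 fold change with the trend removed was -0.92. The part of length in the other changes was not tested beyond these values.

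**Figure D5:**
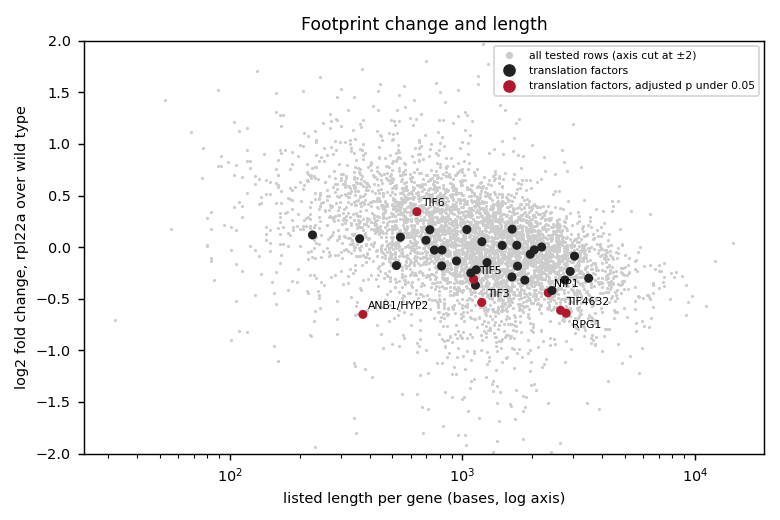
Log2 fold change of footprints, rpl22a over wild type, against listed length per gene (log axis). Grey points are all tested rows, dark points translation factors and red points those with adjusted p under 0.05. Longer genes tend lower, and ANB1/HYP2 lies below genes of its length.

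Several initiation factors, and the elongation factors TEF4 and NEW1 against can1 and ANB1/HYP2 against tor1, were lower in rpl22a when it was set against the other mutants. These contrasts use no wild-type level, although the wild-type libraries contribute to the shared estimate of the spread. Against can1, 12 members were lower and 0 higher (23.7% of all rows called, 12.4% lower and 11.3% higher), and 0 of 3 subunits of eIF2 were among them. Against tor1, 9 were lower and 0 higher (14.8% of all rows called, 7.96% lower and 6.86% higher). With the compared strains alone in the fit the counts were 5 against can1 and 6 against tor1. Every rpl22a library lay below every can1 library for 15 members (40.5%), against 26.2% of all rows, and above for 2 (5.41%), against 26.4%. It lay below every tor1 library for 23 (62.2%), against 31% of all rows, and above for 3 (8.11%), against 30.2%. RPG1, TIF3, TIF4632 and TIF5 were called in all 3 contrasts of rpl22a, which share the rpl22a libraries. RPG1 had 189 and 134 in rpl22a, against 275, 282 and 283 in can1 and 277 and 276 in tor1. Its log2 fold changes were -0.81 ± 0.13 against can1 (limma adjusted p = 0.00171) and -0.79 ± 0.14 against tor1 (adjusted p = 0.00461). TIF4632 had 31.2 and 32.3 in rpl22a, against 63.7, 53.1 and 48.8 in can1 and 63.4 and 60.0 in tor1. It differed by -0.77 ± 0.14 (limma adjusted p = 0.00286) and -0.94 ± 0.15 (adjusted p = 0.00246). TIF3 gave -0.60 ± 0.12 against can1 and -0.82 ± 0.13 against tor1, and TIF5 -0.40 ± 0.10 and -0.41 ± 0.11.

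Other members were called against 1 or both of these mutants. Of those, NIP1 and ANB1/HYP2 were also called against wild type, and the others were not, which does not show that the contrasts differ. FUN12 (eIF5B) had 307 and 273 in rpl22a, against 383, 379 and 367 in can1 and 391 and 364 in tor1, with no overlap. It was lower by log2 fold changes of -0.38 ± 0.09 (limma adjusted p = 0.0159) and -0.38 ± 0.10 (adjusted p = 0.031). FUN12 is a long gene, and with the trend on length removed these were -0.10 (adjusted p = 0.476) and -0.21 (adjusted p = 0.181). TIF34 (eIF3i) and TIF4631 were lower against both mutants, at -0.28 and -0.42 against can1 and -0.35 and -0.47 against tor1. NIP1, GCD2 (eIF2B delta), TEF4, NEW1 (an eEF3 relative) and TIF1/TIF2 were lower against can1, at -0.50, -0.37, -0.40, -0.47 and -0.30. Removing the trend on length also ended the calls of TIF4631 against both mutants, at -0.16 (adjusted p = 0.334) against can1 and -0.31 (adjusted p = 0.115) against tor1. Against can1 it ended those of NEW1, at -0.14 (adjusted p = 0.318), NIP1, at -0.29 (adjusted p = 0.103), and GCD2, at -0.24 (adjusted p = 0.137). PAB1, the poly(A)-binding protein, and ANB1/HYP2 were lower against tor1, at -0.56 and -0.74. Without 1 library or more, 10 of the 12 calls against can1 and 6 of the 9 against tor1 were lost. The counts were 2 against can1 and 3 against tor1 without rpl22a replicate 2. Against can1 they were 5 without can1 replicate 2 and 6 without can1 replicate 3, and against tor1 3 without tor1 replicate 1 and 4 without tor1 replicate 2.

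In can1 and tor1 no member passed the test in footprints. In can1, limma called 0 of 37 members (0.224% of all rows), and 0 had an unadjusted p under 0.05, against 235 of all 4900 rows. The median was 0.05, against 0.00 over all rows. For 5 members (13.5%) every can1 library lay above every wild-type library, against 4.53% of all rows: FUN12, RPG1, NIP1, TIF34 and TIF1/TIF2. For 0 members did every can1 library lie below, against 3.9% of all rows. TIF34, for example, had 404, 402 and 387 in can1, against 359, 361 and 360.2 in wild type (log2 fold change 0.14 ± 0.08, limma adjusted p = 0.999). The lowest value was that of ANB1/HYP2, with 3001, 2669 and 2373 in can1, against 3783, 3373 and 2687 in wild type (-0.28 ± 0.13, limma adjusted p = 0.999). These groups overlap, while can1 was the lower in each of the 3 pairs of the same replicate number, and the fit with the replicate as a block called 0 members.

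In tor1, limma called 0 of 37 members (0.0408% of all rows), and 5 had an unadjusted p under 0.05, against 354 of all 4900 rows. Both tor1 libraries lay above all wild-type libraries for 18 members (48.6%), against 12.1% of all rows, and below for 1 (2.70%), against 12.6%. Of the 37, 30 had a log2 fold change above 0, against 2433 of all 4900 rows. Their median was 0.10, against 0.00 over all rows. TIF3 had 879 and 749 in tor1, against 704, 679.8 and 618 in wild type (log2 fold change 0.28 ± 0.12, limma adjusted p = 0.671). PAB1 had 1725 and 1532 in tor1, against 1447, 1380.5 and 1213 in wild type (0.28 ± 0.12, limma adjusted p = 0.671). SUI3 (eIF2 beta) had 659 and 602 in tor1, against 555, 494 and 478 in wild type (0.31 ± 0.14, limma adjusted p = 0.672). None of the 3 rows overlapped between groups, and none passed. The 1 member lower in both tor1 libraries was CAM1, with 274 and 241, against 285, 292 and 303 in wild type.

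The 2 wild-type mRNA libraries differed from each other for some members, which bears on every mRNA comparison. The largest difference of the set was that of DED1, at 1.15 on the log2 scale, replicate 1 minus replicate 2. The median was 0.26 over the 4 eEF1 rows and 0.34 over the 4 rows of eEF2 and the eEF3 family. ANB1/HYP2 had 1580.0 and 824 in the 2 wild-type mRNA libraries, a log2 difference of 0.94, where all rows had a median of -0.01 and an SD of 0.36. It had 741 and 641 in the can1 libraries, 642 in that of rpl22a and 1326 in tor1. TEF1/TEF2 had 9545 and 7109 in the can1 libraries, 7788 in that of rpl22a and 14357 in tor1, against 14544 and 9169 in wild type. For both rows wild-type replicate 1 and the tor1 library were high and the others low.

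With all mRNA libraries and no replicate block, no member was called in mRNA. Limma called 0 of 38 in can1 (1.40% of all 5281 rows), 0 in rpl22a (3.56%) and 0 in tor1 (0.246%), with 3, 1 and 0 at an unadjusted p under 0.05. In can1, 395 of all 5281 rows had an unadjusted p under 0.05, and in rpl22a the share of members was below that of all rows. With the replicate number as a block, ANB1/HYP2 was called in can1 mRNA (log2 fold change -0.73, limma adjusted p = 0.00704). Same-numbered can1 and wild-type mRNA libraries correlated at only 0.10, so the numbers hardly pair these samples. Of all rows, 0.909% were called higher and 0.492% lower in can1, 1.27% higher and 2.29% lower in rpl22a, and 0.0379% higher and 0.208% lower in tor1. The rpl22a and tor1 strains have 1 mRNA library each, which is assumed to vary like the others. Without overlap with wild type, can1 mRNA was higher for 4 members (10.5%) and lower for 6 (15.8%), against 15.5% and 14.4% of all rows. The rpl22a library was above wild type for 12 (31.6%) and below for 14 (36.8%), against 40.1% and 36.7% of all rows. The tor1 library was above for 19 (50.0%) and below for 3 (7.89%), against 28% and 30.2% of all rows. RPG1 had 97.9 in rpl22a mRNA, against 95.9 and 89.5 in wild type (log2 fold change 0.08 ± 0.29, limma adjusted p = 0.941). TIF4632 had 18.4, against 15.3 and 16.3 in wild type (0.21 ± 0.26, limma adjusted p = 0.774), and ANB1/HYP2 had the lowest log2 fold change, -0.83 ± 0.37 (adjusted p = 0.246).

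Translational efficiency, the change in footprints relative to mRNA, gave 0 calls among 37 members in can1 (0.0204% of all 4897 rows), rpl22a (0%) and tor1 (0%), with 0, 3 and 0 at an unadjusted p under 0.05. In rpl22a the 3 lowest were TIF4632 at -0.82 ± 0.25 (limma adjusted p = 0.256), RPG1 at -0.72 ± 0.24 (0.26) and FUN12 at -0.72 ± 0.22 (0.258). The efficiency change also went with length, with a Spearman correlation across genes, again a description, of -0.68 over the 37 members and -0.63 over all rows. The 10 members of 2000 bases or more, which include these 3, had a median of -0.44, against -0.35 for all rows of that length. With 1 rpl22a mRNA library changes of this size could not be told from 0. The share of members with an unadjusted p under 0.05 in rpl22a efficiency was below that of all rows.

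Genes that act on the factors were set beside them in 4 lists. Unlike those of the members, calls in these lists were not followed without single libraries or with the trend on length removed. In rpl22a footprints, where 10.1% of all rows fell, 2 of 13 regulators of initiation (15.4%) fell: DHH1, a decapping activator and translational repressor, had 167 and 160.2 in the rpl22a libraries, against 253, 242 and 239.9 in wild type (log2 fold change -0.58 ± 0.10, limma adjusted p = 0.00269), and SBP1, an eIF4G-binding repressor, had 367 and 434 in the rpl22a libraries, against 671, 594 and 539 in wild type (-0.58 ± 0.15, adjusted p = 0.0219). Of 8 enzymes that modify the factors, 1 (12.5%) fell: DYS1, which makes the hypusine residue of eIF5A, had 284 and 256 in the rpl22a libraries, against 352, 336 and 322 in wild type (-0.32 ± 0.10, limma adjusted p = 0.047). Of 7 mitochondrial translation factors, 2 (28.6%) fell: TUF1 had 77.8 and 68.9 in the rpl22a libraries, against 122, 119 and 129 in wild type (-0.74 ± 0.12, limma adjusted p = 0.00157) and MEF1 had 11.6 and 9.85 in the rpl22a libraries, against 19.5, 18.6 and 20.2 in wild type (-0.80 ± 0.15, adjusted p = 0.0036). TUF1 had 73.5 in the 1 rpl22a mRNA library, against 186 and 133 in wild type. That log2 fold change of -1.09 ± 0.30 (limma adjusted p = 0.0116) has no replicate check in rpl22a, since its error comes from the other strains. Of 9 rescue, recycling and decay genes 0 were called, and in can1 and tor1 footprints 0 of these 37 genes were called. Set against can1, rpl22a was also higher for MTQ2 (1.16) and GIR2 (0.52) and lower for DBP1 (-0.98) and GCN2 (-0.50), and against tor1 it was higher for RRT2 (0.68) and lower for PBP1 (-0.49).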

How the data were processed

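Ribosome footprints and mRNA fragments were sequenced in 16 libraries, grouped by the labels. The submitters' processing notes name Bowtie 1.1.2 and the build R64, and the authors deposited RPKM per row, per the file headers. The treatment of reads that match several genes is not stated in those notes. Low values are whole multiples of 1 read's worth (tolerance 0.05 reads), which gave library totals. In 3 libraries the steps were those of a mean of 2 runs, so their read numbers are approximate.

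RPKM values are not counts, so limma 3.58.1 (statmod 1.5.0, R 4.3.3) was run on log2(scaled RPKM + 1), a scale that understates changes of low genes, with trimmed-mean scaling within each assay. Rows needed the level of 10 reads of the median library in 2 footprint libraries or 1 mRNA library, and 15 reads in all. All strains of an assay shared 1 estimate of the spread. The efficiency test was an assay-by-strain interaction that treated both assays as independent, although they came from the same lysates. P-values were adjusted by Benjamini-Hochberg over all rows tested, at a threshold of 0.05. The fit was tested on simulated data.

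Members and lists were chosen with earlier results of these data known. Values were given for members past the threshold, for paralog pairs, for the highest and lowest member of each role group in rpl22a footprints, and for called genes of the related lists. Replicate numbers in the labels were checked for pairing: deviations of same-numbered can1 and wild-type footprint libraries correlated at 0.66, 0.25 and 0.43. Libraries with different numbers were not compared, so whether the numbers pair these samples was not tested. The fit with replicate as a block called 0 members in can1 footprints too. Other same-numbered pairs correlated between -0.34 and 0.10. Alternatives changed the scaling, pseudocount, filter, length trend, samples in the fit, replicate block and each replicate. Sequences were read from the RefSeq genome of R64.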

Additional observations from a re-analysis of the deposited data

Results flagged for a closer look

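Members were flagged where every footprint library of 1 mutant lay below, and every library of the other above, every wild-type library. The direct test of 1 mutant against the other also had to pass. Called members with opposite signs but overlapping libraries are not listed here. The share of all rows that meet this rule was not computed. The counts of members below therefore do not show whether the set differs from other genes. By this rule, the change from wild type differed between rpl22a and can1 for 5 members. The log2 difference of rpl22a minus can1 was -0.81 for RPG1 (limma adjusted p = 0.00171), -0.50 for NIP1 (0.0246), -0.38 for FUN12 (0.0159), -0.30 for TIF1/TIF2 (0.0441) and -0.28 for TIF34 (0.0469). With the trend on length removed, NIP1 (-0.29, adjusted p = 0.103) and FUN12 (-0.10, 0.476) no longer passed. Only RPG1 kept its call whichever library of the compared strains was left out, and TIF34 lost it each time.

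By the same rule, the change differed between rpl22a and tor1 for 7 members. The log2 difference of rpl22a minus tor1 was -0.94 for TIF4632 (limma adjusted p = 0.00246), -0.82 for TIF3 (0.00303), -0.79 for RPG1 (0.00461), -0.56 for PAB1 (0.0134), -0.47 for TIF4631 (0.0216), -0.38 for FUN12 (0.031) and -0.35 for TIF34 (0.0392). With the trend on length removed, TIF4631 (-0.31, adjusted p = 0.115) and FUN12 (-0.21, 0.181) no longer passed. Only TIF4632, TIF3 and RPG1 kept their calls whichever library of the compared strains was left out, and TIF34 again lost its call each time. In each case the rpl22a value was below wild type and the can1 or tor1 value above it, although neither can1 nor tor1 alone passed the test against wild type.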

How the results depend on the processing

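The 28 values of members past the threshold kept their direction in 355 of 355 alternative values and their call in 240. Values picked for passing the threshold could hardly change sign under most of these settings, so the kept direction is not a separate check. The 5 calls kept under every alternative run were RPG1 and TIF4632 against can1, and RPG1, TIF3 and TIF4632 against tor1. The count of members called in rpl22a against wild type was 7, and 4 with the deposited scaling and 4 with the compared strains alone. Over all rows the count was 928, and 1179 with the deposited scaling and 782 with the compared strains alone. Against can1 the count of members was 12, and 4 with the deposited scaling and 5 with the compared strains alone. Against tor1 it was 9, and 15 with the length trend removed. Those 15 members included GCD1, which was called higher (log2 fold change 0.46, limma adjusted p = 0.039). Leaving out each replicate in turn gave 1 to 5, 2 to 11 and 3 to 8 in these contrasts. The lowest counts came without rpl22a footprint replicate 2, and against tor1 also without tor1 footprint replicate 1. For the contrasts with can1 and tor1, counts over all rows under these settings are not given here. Moves of the member counts there are therefore not set against those of all genes. In can1 mRNA the count was 0, and 1 with the replicate block (ANB1/HYP2, log2 fold change -0.73, adjusted p = 0.00704), alone or with the compared strains alone, a setting added after seeing the data. Leaving out replicates there gave 0 to 1, the call being DED1 without wild-type mRNA replicate 2 (-1.12, adjusted p = 0.00392). The block kept 7 calls in rpl22a against wild type, losing NIP1 and TIF6 and adding PAB1 and TIF4631. The rpl22a and tor1 numbers did not pair with wild type, and those of can1 mRNA correlated with it at only 0.10. The causes of these moves were not tested. The single rpl22a and tor1 mRNA libraries limit the mRNA and efficiency comparisons, and the low reads of HEF3 its footprint level.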
